A study of Mus musculus with 28 samples.

Results

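Activation of satellite cells, which are the resident stem cells of muscle, was examined by comparing the accessible chromatin of activated satellite cells with that of quiescent satellite cells, each with 2 ATAC-seq libraries. In ATAC-seq a transposase inserts adapters where chromatin is open and the fragments between them are sequenced, so that each peak marks a stretch of accessible DNA. A region was activated-only when both activated libraries and neither quiescent library had a peak in it, and quiescent-only in the reverse case. By this rule 14684 regions were activated-only and 9196 were quiescent-only, together 23880 of the 253225 regions found in all 28 libraries of the series. The regions are defined by the presence of a peak, because the deposited lists give positions and no peak height, so a region may have been accessible below the threshold of the peak caller in a library that did not list it.

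Satellite cells lie between the muscle fibre and its basal lamina, carry the transcription factor Pax7, and stay out of the cell cycle in resting muscle. After injury, or once placed in culture, they enter the cycle, make the myogenic factor MyoD and multiply as myoblasts that fuse into fibres or return to rest. Accessible regions away from promoters often mark enhancers, and these differ more between cell states than promoters do.

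Both satellite cell groups came from adult Pax7-nGFP mice, which carry a nuclear green reporter of Pax7, aged 10 to 12 weeks. The labels state neither how the cells labelled activated were activated nor whether libraries of the same state are from different animals. The spread between libraries may therefore be technical. The calls in the other 24 libraries were not part of the rule and served as a readout, although their peaks entered the merging that set the borders of the regions. Regions merged from the 4 satellite cell lists alone gave 15735 activated-only and 9867 quiescent-only regions. The other 24 libraries came from mouse embryonic fibroblasts (MEFs) with the Pax7-nGFP reporter, a Col1a1-tetO-MyoD transgene and Rosa-rtTA. Doxycycline (Dox) therefore switches on MyoD in any cell with both of the last. The labels give the same embryonic day for the fibroblasts of all 24 libraries. The MEF14 groups were cells with Dox alone at days 4 and 8, cells with RepSox, forskolin and CHIR99021, an inhibitor of GSK3, but no Dox (FRG) at day 8, cells with both (Dox+FRG) at days 2, 4, 6 and 8, a GFP-labelled fraction of Dox+FRG cultures at days 8 and 10, and untreated cells at day 0. The letters FRG are taken to stand for these small molecules, which act on cyclic AMP, the TGF-beta receptor and Wnt signalling. Dox+FRG libraries without a GFP label are called unsorted, although the labels do not describe the sort. A further pair of groups, MEF10 MyoD+FRG and MEF10 MN+FRG at day 6, had 2 libraries each, and the labels do not define MN. The satellite cell labels could not be checked against marker genes, because no gene annotation of mm9, the build of the lists, was used here, and for the same reason regions are named by position and not by gene.

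The activated lists held 49072 and 61400 peaks and the quiescent lists 57859 and 37910 peaks. The peaks covered 11.8 and 14.5 Mb in activated cells and 15.2 and 8.92 Mb in quiescent cells. In each list between 89.2% and 92.5% of the peaks shared a single width, between 172 and 182 bp. The lists of the other libraries held 37301 to 134997 peaks. Read depth is unknown from the lists, and the shortest satellite cell list, quiescent replicate 2, limits how many regions could be called quiescent-only.

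Of the 85290 regions called in any satellite cell library, 17.2% were activated-only and 10.8% were quiescent-only. A further 23454 regions (27.5%) were called in all 4 satellite cell libraries. The state-only regions made up 33.8% of the 43464 regions called in both activated libraries and 25.5% of the 36006 called in both quiescent libraries. Most of what each state opened reproducibly was thus listed in at least 1 library of the other state as well. With 2 libraries against 2 the smallest two-sided p an exact permutation test allows is 0.333, so no test was made of these counts.

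**Figure D1:**
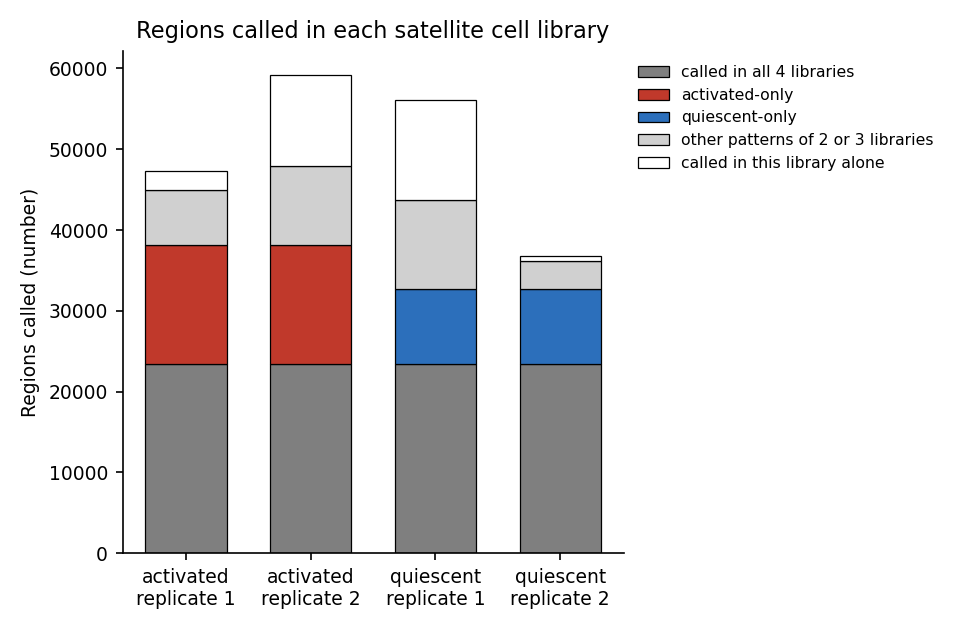
Number of regions called in each satellite cell library (vertical axis), divided by which of the 4 libraries called them. The 23454 regions called in all 4 libraries form the same base in every bar, while the part called in 1 library alone is large in activated replicate 2 (11351) and quiescent replicate 1 (12422) and small in activated replicate 1 (2288) and quiescent replicate 2 (647).

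The balance of 14684 against 9196 changed with the peaks and libraries used. Activated-only regions were 61.5% of the state-only regions with the lists as deposited, and 49.3% when 37910 peaks were drawn at random from each satellite cell list (7881 activated-only and 8095 quiescent-only). The draw took all of quiescent replicate 2 and a smaller part of each longer list, so it lowers the classes unequally by construction. With only the peaks that exceeded their list's usual width, activated-only regions were 49.6%, with 1116 activated-only and 1134 quiescent-only regions. Without activated replicate 1, 26035 regions were activated-only and 10100 quiescent-only. Without quiescent replicate 2, 14802 were activated-only and 21618 quiescent-only. Which state had more regions of its own therefore cannot be read from these lists.

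Libraries of 1 state were closer to each other than to any library of the other state. The Jaccard index, which is the number of shared regions over the number called in either library, was 0.690 between the activated libraries and 0.632 between the quiescent libraries. Across states the 4 pairs gave 0.373 to 0.412. Quiescent replicate 2 was almost wholly contained in replicate 1, which called 97.7% of its regions, while 64.1% of the regions of replicate 1 were called in replicate 2. Among the activated libraries, replicate 2 called 92.0% of the regions of replicate 1, and replicate 1 called 73.4% of those of replicate 2.

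Peaks of the 2 libraries lay at similar distances in state-only regions and in regions called in all 4 libraries. Where each library had a single peak in the region, the middles of the peaks were a median of 34.5 bp apart in the activated-only regions (14416 of 14684 regions) and 47.0 bp apart in the quiescent-only regions (9099 of 9196). In regions called in all 4 libraries these medians were 36.5 bp for the activated and 48.0 bp for the quiescent libraries, and overlapping peaks of this width have close middles by construction. State-only regions carried wide peaks less often than regions called in all 4 libraries did. In activated replicates 1 and 2, 3.38% and 5.31% of activated-only regions held a peak wider than the most common width, against 11.9% and 14.7% of the regions called in all 4 libraries. In quiescent replicates 1 and 2, 10.6% and 4.77% of quiescent-only regions did, against 16.9% and 10.8%. These are values of the libraries that chose the regions and were not tested.

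Just outside the rule lay 5326 regions called in both activated libraries and 1 quiescent library, of which 5208 were called in quiescent replicate 1 and 118 in replicate 2. On the other side were 3356 regions called in both quiescent libraries and 1 activated library, 2452 of them in activated replicate 2 and 904 in replicate 1. In each case the longer list of the pair supplied most of the single calls. Few state-only regions had a peak of the other state with its middle close to their own. The rule keeps such a peak out of the region, whose own width takes up part of the distance. Low counts therefore follow in part by construction, and how often a narrow gap split a region from such a peak was not tested. A quiescent peak had its middle within 500 bp of the middle of 24 activated-only regions (0.163%), and an activated peak within 500 bp of 31 quiescent-only regions (0.337%). The nearest peak of the other state was a median of 14.1 kb away for activated-only and 10.5 kb away for quiescent-only regions.

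State-only regions lay closer to their own class than to the opposite class. The median distance to the nearest region of the same class was 35.0 kb for activated-only and 33.2 kb for quiescent-only regions. To the nearest region of the opposite class it was 132 kb for activated-only and 60.3 kb for quiescent-only regions. The regions called in all 4 libraries, the most numerous of these classes, were nearer still, at a median of 32.1 kb from activated-only and 20.9 kb from quiescent-only regions. Within 10 kb, 20.2% of activated-only regions had another activated-only region and 7.19% had a quiescent-only region. Among quiescent-only regions, 21.0% had another quiescent-only region within 10 kb and 11.5% had an activated-only one, although activated-only regions were the more numerous. A region called in all 4 libraries stood within 10 kb of 21.3% of activated-only and 26.1% of quiescent-only regions. Taking the state-only regions in order along each chromosome, the next one was again activated-only after 73.2% of activated-only regions, which were 61.5% of all, and again quiescent-only after 57.3% of quiescent-only regions, which were 38.5% of all. Neighbouring regions are not independent, and these shares are a description of the lists.

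Of the 20102 windows of 100 kb that held any satellite cell region, 6792 held activated-only and no quiescent-only regions, 3165 the reverse, and 2650 both. At least 4 activated-only and no quiescent-only regions stood in 291 windows, and at least 4 quiescent-only and no activated-only regions in 166. The 3 windows with most regions of each class were looked at one by one.

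The window on chromosome 2 from 113200001 to 113300000 (mm9) held 9 activated-only regions among 12 satellite cell regions and no quiescent-only region. The first ran from 113203697 to 113204776 and the last from 113296766 to 113298050. A single region of the window, from 113269935 to 113271449, was listed in quiescent cells, and there in replicate 1. Most of these regions were also open in fibroblasts: Dox day 8 cells called 9 and 9 of the 9 regions, FRG day 8 cells 5 and 6, and day 0 cells 7 and 7. Cells labelled GFP called 4 and 4 at day 8 and 5 and 6 at day 10. Of all 12 regions of the window, Dox day 8 cells called 11 and 11, and FRG day 8 cells 6 and 7. Day 0 cells called 8 and 8 of the 12, and GFP cells 6 and 6 at day 8 and 7 and 8 at day 10.

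In the chromosome 11 window from 31600001 to 31700000, 9 of 14 regions were activated-only, 1 was quiescent-only and 2 were called in all 4 libraries. Each fibroblast-derived library called between 1 and 6 of the 9 activated-only regions here. Of these 9, Dox day 8 cells called 4 and 6, FRG day 8 cells 3 and 3, and day 0 cells 2 and 1. Of all 14, Dox day 8 cells called 5 and 8, FRG day 8 cells 3 and 5, and day 0 cells 2 and 1. The region from 31698210 to 31698420 was called in both activated libraries and in 0 of the 24 other libraries, whereas its neighbour from 31696049 to 31697736 was called in all 24. The third window, on chromosome 16 from 11600001 to 11700000, held 8 activated-only regions among 11. Its activated-only regions were called by Dox day 8 cells (7 and 8 of 8), less by FRG day 8 cells (5 and 4) and by day 0 cells (2 and 2), and by neither library of GFP cells at day 8. Of all 11 regions there, Dox day 8 cells called 10 and 11, and FRG day 8 cells 8 and 7. Day 0 cells called 3 and 3 of the 11, and GFP cells of day 8 called 0 and 0.

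On chromosome 18, from 55100001 to 55200000, 9 of 12 regions were quiescent-only and none was activated-only. Dox day 8 cells called 3 and 4 of these 9 regions, FRG day 8 cells 6 and 5, and day 0 cells 1 and 0. Of all 12, Dox day 8 cells called 5 and 6, FRG day 8 cells 9 and 8, and day 0 cells 3 and 2. A region in the midst of the quiescent-only ones, from 55144391 to 55146820, was called in all 4 satellite cell libraries. A pair of windows on chromosome 1, from 155000001 to 155100000 and from 165200001 to 165300000, held 8 quiescent-only regions and 1 activated-only region each, among 12 and 11 regions. In the first, Dox day 8 cells called 2 and 3 of the 8 quiescent-only regions, and unsorted Dox+FRG cells of day 8 called 3 and 2. FRG day 8 cells called 4 and 4, and day 0 cells 2 and 3. Of all 12 regions there these groups called, in the same order, 5 and 6, 7 and 5, 7 and 7, and 4 and 5. In the second, Dox day 8 cells called 3 and 5 of the 8, and unsorted Dox+FRG cells of day 8 called 2 and 1. FRG day 8 cells called 6 and 6, and day 0 cells 6 and 5. Of all 11 regions there these groups called, in the same order, 5 and 7, 4 and 3, 8 and 8, and 7 and 5. Cells labelled GFP at day 10 called 4 and 5 of the 8 in the first window and 4 and 4 in the second. Of all regions of the window they called 8 and 9 in the first and 6 and 6 in the second.

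**Figure D2:**
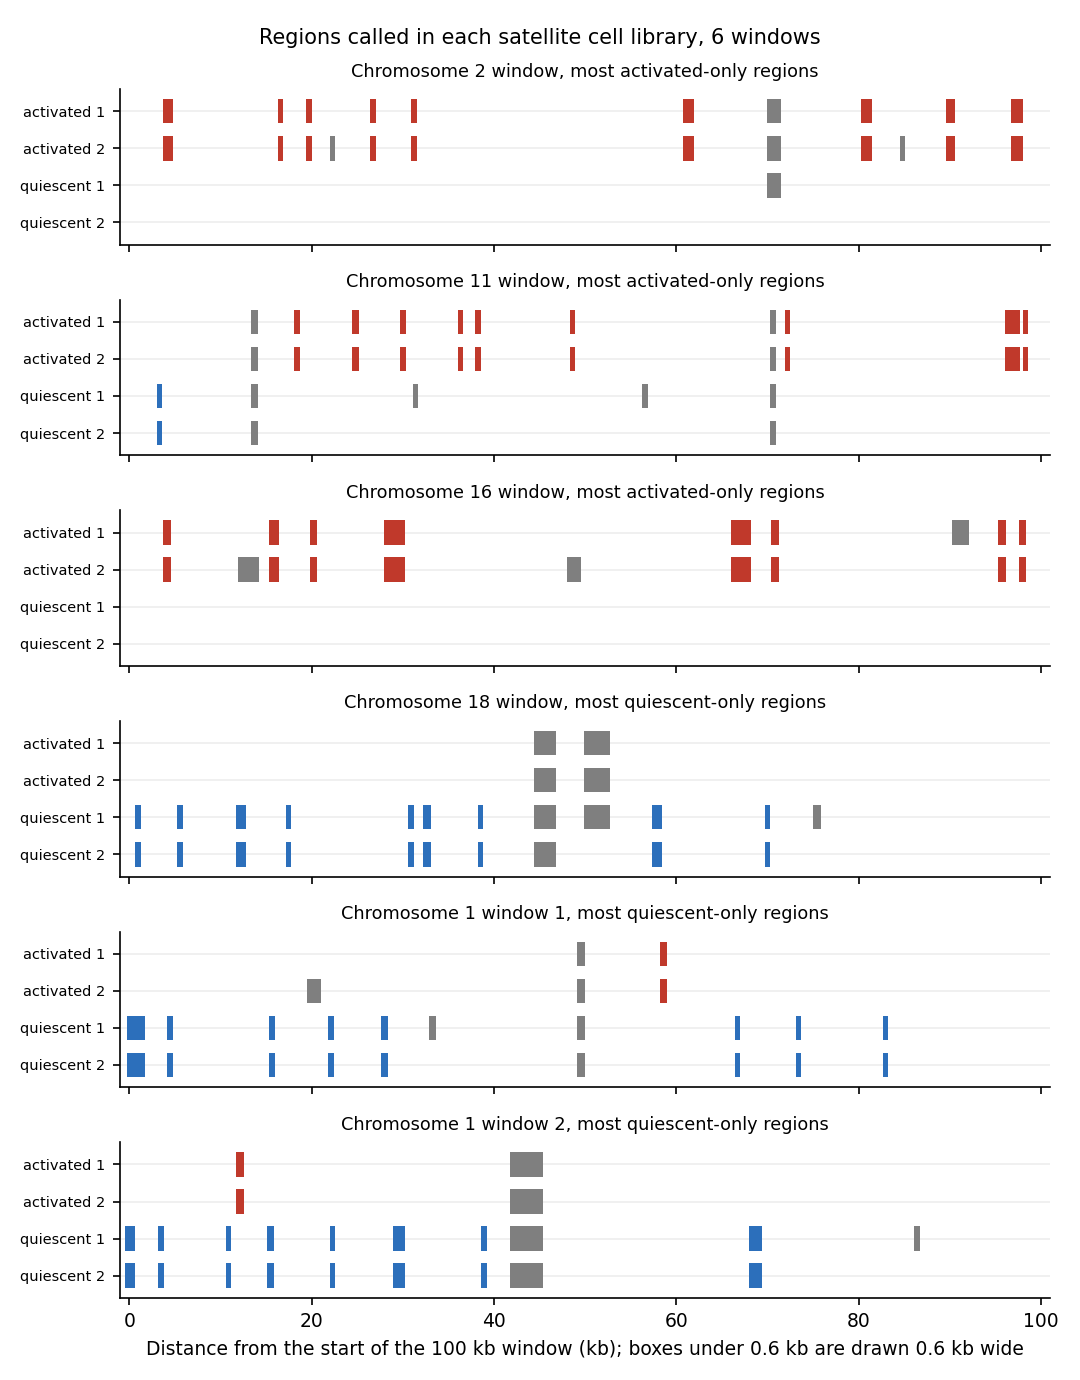
Regions called in each of the 4 satellite cell libraries (rows) in the 3 windows with most activated-only and the 3 with most quiescent-only regions, against distance from the start of the window in kb. Red marks activated-only, blue quiescent-only and grey all other regions, drawn at the width merged over the 28 libraries. In the chromosome 18 window 7 quiescent-only regions stand in a row before the first grey one, and the quiescent rows of the chromosome 16 window are empty.

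Longer stretches of 1 state were found as well, chosen here after their lengths were seen. Counting only activated-only, quiescent-only and all-4 regions, the longest unbroken run was of 23 activated-only regions on chromosome 14 from 13248181 to 14604019, a span of 1356 kb. In it the activated libraries called 23 and 29 of 30 satellite cell regions, and the quiescent libraries 1 and 0. The longest quiescent run was of 14 regions on chromosome 10 from 20081558 to 20394076, a span of 313 kb, where the activated libraries called 0 and 1 of 23 regions and the quiescent libraries 22 and 14. Dox day 8 cells called all 23 members of the chromosome 14 run in both libraries, FRG day 8 cells 17 and 17, and day 0 cells 18 and 14. Of the 14 members of the chromosome 10 run, Dox day 8 cells called 3 and 8, FRG day 8 cells 8 and 9, GFP cells 1 and 1 at day 8 and 7 and 7 at day 10, and day 0 cells 5 and 5. Of all 85290 satellite cell regions, Dox day 8 cells called 70.3% and 75.5%, and FRG day 8 cells 63.7% and 63.4%. Day 0 cells called 52.0% and 50.8% of them, and GFP cells 44.3% and 41.4% at day 8 and 55.0% and 56.5% at day 10. Runs of 5 or more regions held 21.1% of activated-only and 8.75% of quiescent-only regions.

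Activated-only and quiescent-only regions differed in how widely they were open outside satellite cells. In all, 536 activated-only regions (3.65%) were called in 0 of the 24 fibroblast-derived libraries, against 1802 quiescent-only regions (19.6%). The median number of fibroblast-derived libraries was 14 for activated-only and 7 for quiescent-only regions, while regions called in all 4 satellite cell libraries had a median of 24. All 24 libraries called 703 (4.79%) of the activated-only, 166 (1.81%) of the quiescent-only and 14059 (59.9%) of the all-4 regions. The 24 libraries share cells of origin and treatments, so they are not independent samples and no test was made of these numbers.

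**Figure D3:**
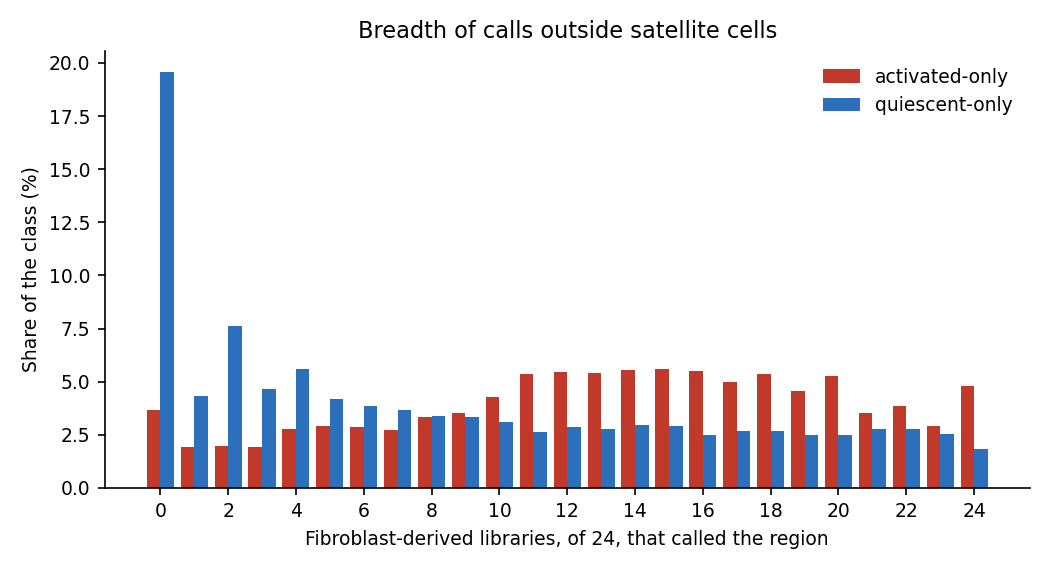
Share of activated-only (red) and quiescent-only (blue) regions (%, vertical axis) by the number of the 24 fibroblast-derived libraries that called them (horizontal axis). At 0 libraries the activated-only class has 3.65% of its regions and the quiescent-only class 19.6%, its highest bar, while the activated-only class has its highest bar at 15 libraries (5.60%).

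Fibroblasts in which MyoD had been switched on without the small molecules called most activated-only regions and a smaller part of the quiescent-only ones. Activated-only regions were called at 78.5% and 81.1% in the Dox day 4 libraries and 85.0% and 90.0% in the Dox day 8 libraries. In the libraries with no MyoD induced they were called at 51.2% and 50.4% (FRG day 8) and at 46.6% and 45.5% (day 0). Of all 85290 satellite cell regions, members included, the same libraries called 64.1% and 66.6% (Dox day 4), 70.3% and 75.5% (Dox day 8), 63.7% and 63.4% (FRG day 8) and 52.0% and 50.8% (day 0), so the Dox libraries were high there too. For activated-only regions every Dox library stood above every library without MyoD, by 83.7% ± 5.01 against 48.4% ± 2.79 (SD, n = 4 each). The difference of 35.2 percentage points passed a two-sided exact permutation test over 70 splits (p = 0.0286, the smallest it can give; adjusted p = 0.0429 over 3 measures, Benjamini-Hochberg).

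Quiescent-only regions did not separate these libraries in the same way. They were called at 30.8% and 34.6% (Dox day 4) and 40.4% and 48.1% (Dox day 8), against 60.0% and 59.9% (FRG day 8) and 34.5% and 33.1% (day 0). The FRG libraries were highest, and the Dox and day 0 values overlapped. The mean was 38.5% ± 7.54 in Dox and 46.9% ± 15.1 in cells without MyoD (SD, n = 4 each), a difference of -8.38 points that did not pass (exact permutation p = 0.343, adjusted p = 0.343). Against day 0 alone the difference was 4.68 points, in the other direction, and against FRG day 8 alone it was -21.4 points.

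The shares were next set against each other within each library. The log2 ratio of the activated-only share to the quiescent-only share was 1.35 and 1.23 in Dox day 4, 1.07 and 0.90 in Dox day 8, -0.23 and -0.25 in FRG day 8, and 0.44 and 0.46 in day 0 libraries. It averaged 1.14 ± 0.19 in Dox and 0.10 ± 0.40 in cells without MyoD (SD, n = 4 each). The difference of 1.03 passed (two-sided exact permutation p = 0.0286, adjusted p = 0.0429), with all 4 Dox libraries above all 4 others. With the replicate number as a block neither this difference nor that of the activated-only share could pass (exact permutation within blocks, adjusted p = 0.0833), since 36 splits allow no p below 0.0556. Libraries of the same group were permuted as if independent, and the Dox cells also differed from day 0 cells in medium and time in culture, which cannot be told apart from MyoD here. List lengths moved with the groups too: the Dox lists held 89871 to 130916 peaks, the FRG lists 134997 and 133267, and the day 0 lists 70756 and 67502. Peak widths also differed, the most common being 78 to 88 bp in Dox, 61 and 63 bp in FRG, and 153 and 167 bp in day 0 lists. The part that width plays in the shares was not tested. With 67502 peaks drawn from each list the activated-only difference was 19.0 points and the log2 ratio difference 1.03 (exact permutation, adjusted p = 0.0286 for both). The quiescent-only difference of -7.07 points then passed (exact permutation, adjusted p = 0.0286). A random draw takes a larger part from a longer list, which lowers its shares by construction. Differences in share after the draw are therefore no control for list length.

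**Figure D4:**
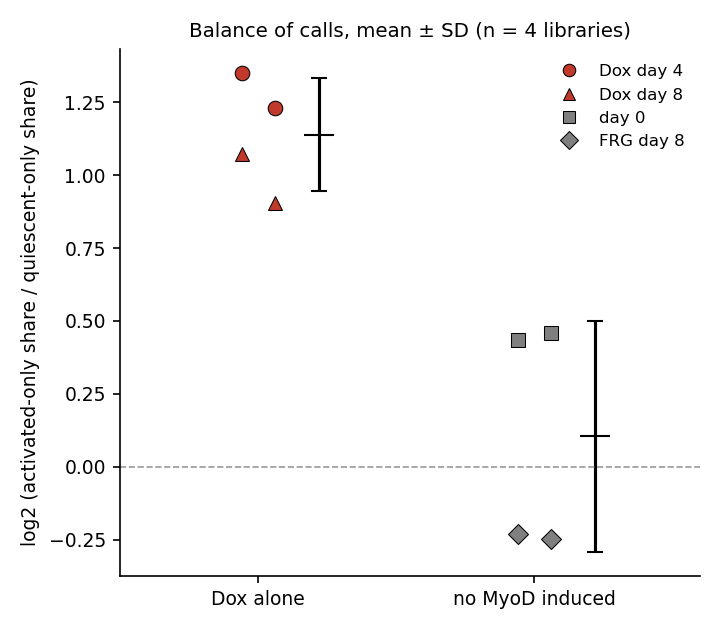
Log2 ratio of the share of activated-only regions called to the share of quiescent-only regions called (vertical axis), 1 point per library, with mean ± SD beside each side (n = 4). The Dox libraries lie between 0.90 and 1.35, above the day 0 libraries (0.44 and 0.46) and the FRG libraries (-0.23 and -0.25).

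The calls were also counted region by region. Both Dox day 8 libraries and neither FRG day 8 library called 5255 activated-only regions (35.8%) and 452 quiescent-only regions (4.92%), beside 6.99% of the regions called in all 4 satellite cell libraries. In the reverse pattern, both FRG and neither Dox library, were 242 activated-only (1.65%) and 1527 quiescent-only regions (16.6%), beside 0.601% of the all-4 regions. Called in no library of either treatment were 1018 activated-only (6.93%) and 2745 quiescent-only regions (29.8%), beside 1.37% of the all-4 regions. Many of the state-only regions were already open in untreated fibroblasts. Both day 0 libraries called 6159 activated-only (41.9%) and 2657 quiescent-only regions (28.9%), against 19407 (82.7%) of the regions called in all 4 satellite cell libraries.

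**Figure D5:**
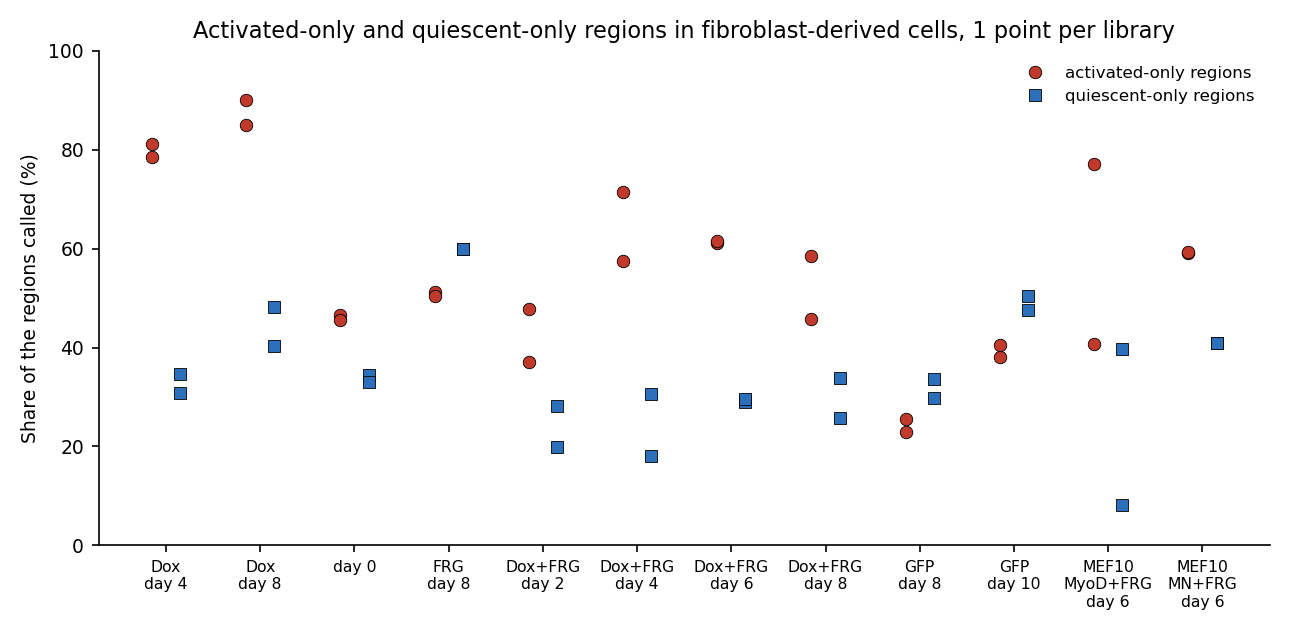
Share of activated-only regions (red circles) and quiescent-only regions (blue squares) called in each of the 24 fibroblast-derived libraries (%, vertical axis), by group, 1 point per library. Activated-only shares exceed quiescent-only shares in all groups but FRG day 8 and both GFP groups, where the squares lie above the circles.

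In unsorted cells during conversion with Dox and the small molecules, a larger share of activated-only than of quiescent-only regions came to be called. Among the 7314 activated-only regions that no day 0 library called, both Dox+FRG libraries first called 12.8% at day 2 and a further 37.0% at day 4, followed by 10.4% at day 6 and 2.02% at day 8. The remaining 37.8% were never called in both libraries of an unsorted day. Among the 5637 quiescent-only regions without a day 0 call the shares were 3.49% at day 2 and 3.34% at day 4, followed by 5.38% at day 6 and 4.08% at day 8, and 83.7% were never called in both. At day 8 both libraries called 47.1% of the activated-only and 12.2% of the quiescent-only regions of this kind. First calls were not counted over all satellite cell regions without a day 0 call. Of all satellite cell regions, with or without a day 0 call, single Dox+FRG libraries called 50.0% and 42.4% at day 2. The shares were 60.0% and 48.5% at day 4, 55.5% and 55.9% at day 6, and 56.4% and 47.3% at day 8. Both GFP libraries of day 10 called 2533 of the 7314 activated-only and 1773 of the 5637 quiescent-only regions. Among the 3119 regions without a day 0 call that all 4 satellite cell libraries called, they called 2471. The day 2 lists were short in replicate 2 (46017 peaks, against 59721 in replicate 1), and the part this plays in the first calls at day 4 was not tested.

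Over all members, the log2 ratio in unsorted Dox+FRG cells averaged 0.83 ± 0.10 at day 2 and 1.45 ± 0.32 at day 4, then 1.07 ± 0.02 at day 6 and 0.81 ± 0.03 at day 8 (SD, n = 2 each). It was below 0 in the cells labelled GFP, at -0.39 ± 0.01 for day 8 and -0.32 ± 0.01 for day 10 libraries (SD, n = 2 each). GFP cells of day 10 called 38.1% and 40.6% of activated-only and 47.6% and 50.4% of quiescent-only regions. Of all regions called in any satellite cell library they called 55.0% and 56.5%. Both day 10 GFP libraries and neither unsorted day 8 library called 372 activated-only regions (2.53%) and 1161 quiescent-only regions (12.6%), beside 2.87% of the all-4 regions. The reverse pattern held 1712 activated-only (11.7%) and 51 quiescent-only regions (0.555%), beside 0.763% of the all-4 regions. These days differ, and no test was made of these counts.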

How the data were processed

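The deposited files are peak lists, one per library, with 3 columns (chromosome, start, end); these values are other than counts, signal or scores. BWA, HOMER and mm9 are named for the authors' work in the submitters' processing notes; their versions, thresholds, read filters and any cut-site shift are not given in the sources used. Each reaction took 60000 cells, 13 PCR cycles and fragments of 100 to 1000 bp, per the labels' protocols. Any peaks of the 28 libraries sharing 1 bp or more were joined into a region (Python 3.11.15, numpy 2.4.6), called in every library with a peak inside. Starts are printed counted from 1. A region belonged to the 100 kb window that held its middle, and the windows named are the 3 with most members of each class, ties by position. The counting was tested on simulated lists. Regions, gene lists and tests were chosen with earlier results of these data known. Planned descriptions of gene lists, gene starts and motifs were not run, because the tables at hand are for GRCm38.p6 and not mm9, so no sequence is printed. Alternatives were regions merged from the 4 satellite cell lists or without MEF10 MyoD+FRG replicate 2, a stricter overlap, lists of equal length, wide peaks alone, autosomes alone, a replicate block and each library left out. Alternatives with day 0 or FRG libraries left out were added after seeing the data.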

Additional observations from a re-analysis of the deposited data

How the results depend on the processing

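Counts of activated-only and quiescent-only regions stayed within 1.5 times of 14684 and 9196 when regions were merged from the 4 satellite cell lists (15735 and 9867) or without MEF10 MyoD+FRG replicate 2 (15352 and 9468), when peaks had to overlap by 50% of the shorter (14521 and 8680), and on autosomes alone (14325 and 8991). A random draw of equal numbers of peaks gave 7881 and 8095, and wide peaks alone 1116 and 1134, fewer by construction. Leaving out each library in turn gave 14802 to 26035 activated-only and 9843 to 21618 quiescent-only regions. With 1 library standing for its state, more regions can meet the rule.

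In the comparison of Dox alone with no MyoD, leaving out each library in turn gave differences of 33.1 to 36.9 points for the activated-only share and 0.92 to 1.15 for the log2 ratio (exact permutation, adjusted p = 0.0429 throughout), and -13.0 to -4.01 points for the quiescent-only share (exact permutation, adjusted p = 0.229 to 0.714). Regions merged from the 4 satellite cell lists gave 38.0 points, 1.15 and -8.80 points, with calls as before. Equal list lengths brought the quiescent-only difference, at -7.07 points, past the threshold, though the draw lowers the shares of longer lists more by construction. The replicate block leaves the differences at 35.2 points and 1.03 and allows no p below 0.0556 (exact permutation, adjusted p = 0.0833). Whether the replicate numbers pair the libraries is not known. Deviations of same-numbered libraries correlated at -0.0017 to 0.017 over 6 pairs of groups, and at 0.083 between activated and quiescent cells. With 2 libraries per group these values cannot exclude a shared animal or batch. For the region counts no paired analysis was possible because the rule asks for both libraries and makes no test. Against day 0 alone the differences were 37.6 points, 0.69 and 4.68 points, the last reversed (exact permutation, adjusted p = 0.100, 0.100 and 0.533). Against FRG day 8 alone they were 32.9 points, 1.38 and -21.4 points (exact permutation, adjusted p = 0.0667 each). With 4 libraries against 2, 15 splits allow no p below 0.0667. What moved the quiescent-only difference past the threshold or reversed it was not tested.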

Other observations

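Chromosomes differed in their balance of the classes, over 20 chromosomes with 61.5% activated-only regions among the state-only regions in all. Chromosome 5 had 1007 activated-only and 460 quiescent-only regions (68.6% activated-only), and chromosome 3 had 916 and 434 (67.9%). Chromosome 10 had 670 and 622 (51.9%), and chromosome 19 had 312 and 280 (52.7%). On chromosome X there were 359 and 205 (63.7%). Activated-only regions were the more numerous on every chromosome in the lists as deposited, and no test was made.

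The MEF10 groups at day 6 were used in no test. They are among the 24 fibroblast-derived libraries counted above, and their peaks entered the merging of regions. MEF10 MyoD+FRG replicates 1 and 2 called 40.7% and 77.1% of activated-only and 8.16% and 39.7% of quiescent-only regions, from lists of 37301 and 91401 peaks. The list of replicate 2 had a most common width of 500 bp and a widest peak of 202465 bp, and covered 92.9 Mb. For replicate 1 these values were 155 bp, 2866 bp and 7.85 Mb. The part that peak width plays in the shares was not tested. Both MEF10 MN+FRG replicates were alike, at 59.0% and 59.4% of activated-only and 40.9% and 40.8% of quiescent-only regions. Of all satellite cell regions, MN+FRG replicates 1 and 2 called 59.4% and 59.5%, close to their activated-only shares. MyoD+FRG replicates 1 and 2 called 36.4% and 65.6% of all satellite cell regions.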
